A study of Homo sapiens with 15 samples.

Results

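The genes examined here encode 10 enzymes and partners that write, read or remove 5-methylcytosine in DNA or that form the histone methyltransferase PRC2. They are the maintenance pair DNMT1 and UHRF1, the de novo methyltransferases DNMT3A and DNMT3B, the dioxygenases TET1, TET2 and TET3, and the PRC2 subunits EZH1, EZH2 and SUZ12. The members were taken by gene symbol from a list drawn up with earlier results of these data known, and all 10 had a row among the 17272 genes of the expression table and passed the filter on low values that left 17046 genes for testing. Polyadenylated RNA was sequenced from LNCaP cells, an androgen-sensitive human prostate cancer line, in 10 libraries of cells given the synthetic androgen R1881 at 1 nM with the solvent DMSO and in 5 libraries of cells given 1 nM R1881 with the antiandrogen enzalutamide at 2 µM. All cells had been kept without androgen for 2 days and were collected 22 h after treatment. No library came from cells without R1881, and all came from a single cell line.

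DNA methylation in mammals is laid down on unmethylated CpG sites by DNMT3A and DNMT3B and is copied to the new strand after replication by DNMT1, which UHRF1 brings to hemimethylated sites. TET enzymes oxidise the methyl group and so start its removal. PRC2 methylates lysine 27 of histone H3 at silenced genes through EZH2, which is abundant in dividing cells, or through EZH1, which is also present in resting cells, and needs SUZ12 for its assembly. EZH2 is often raised in advanced prostate cancer.

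Enzalutamide was accompanied by lower transcript levels of UHRF1, DNMT1 and EZH2 and by higher levels of TET1, TET2 and EZH1, and for each of these 6 genes the ranges of the libraries did not overlap. UHRF1 changed most, to 0.408 of its R1881 level. Smaller differences were found for DNMT3A and DNMT3B, which were higher, and for TET3, which was lower. SUZ12 did not pass the test. In the limma fit over all genes 4 members were lower and 5 were higher (adjusted p under 0.05), where 32.7% of all genes tested were lower and 29.8% were higher. In either direction 62.5% of all genes tested passed this threshold. edgeR on the recovered reads called 3 members lower and 6 higher, beside 29% and 34% of all genes tested. With a change of at least 1.5-fold also required, UHRF1 and EZH2 remained lower and TET1 and TET2 remained higher, where 9.55% and 9.06% of all genes met that rule. The groups of libraries did not overlap, in the called direction, for 20.1% of all genes tested (lower) and for 17.1% (higher), and in either direction, called or not, for 37.2%.

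**Figure D1:**
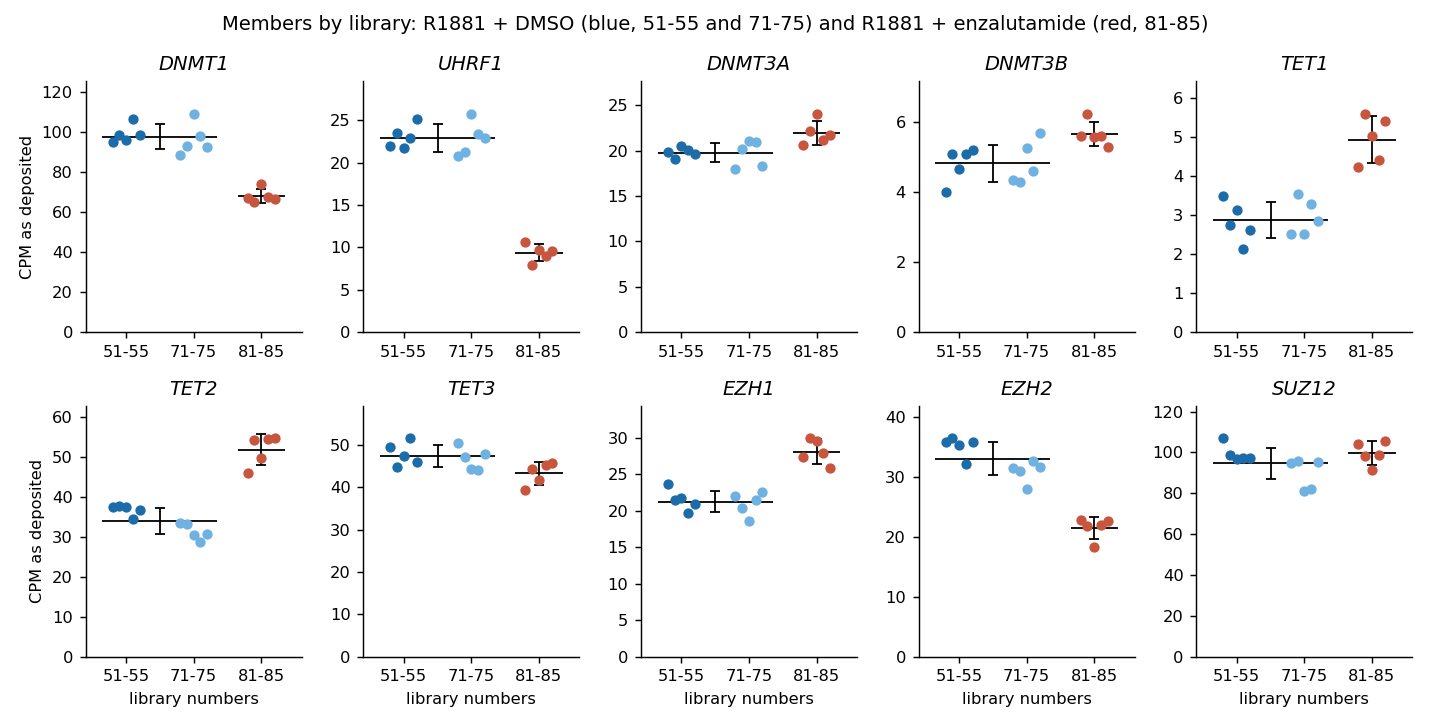
Deposited CPM of each member (vertical axes from 0) in the 15 libraries, with R1881 + DMSO libraries 51 to 55 and 71 to 75 in blue and R1881 + enzalutamide libraries 81 to 85 in red. Black lines and bars are the mean and SD of a treatment (n = 10 and n = 5), and the red points lie below all blue points for UHRF1, DNMT1 and EZH2 and above them for TET1, TET2 and EZH1.

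Library depth, as reads assigned to genes, lay between 15830745 and 25416052. As a check of the treatment, the androgen-induced gene KLK3, which encodes prostate-specific antigen, fell from 1588 ± 209 CPM with R1881 + DMSO (SD, n = 10) to 134 ± 7.66 CPM with enzalutamide (SD, n = 5). The prostate luminal markers FOLH1, KLK2, KLK3, TMPRSS2, HOXB13, KRT8 and KRT18 all had a row and passed the filter on low values. Of 10 markers of basal, stromal, immune, endothelial or neuroendocrine cells 7 had no row, and KRT14, COL1A1 and SYP together reached 6.73 to 11.01 CPM and 8.47 to 13.6 CPM. The labels number the R1881 + DMSO libraries 51 to 55 and 71 to 75 and the enzalutamide libraries 81 to 85. No such series holds both treatments, so that a difference between series and the treatment cannot be told apart, and values against each R1881 series alone are given where they matter.

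The promoters of the members were examined for sites of the E2F factors, which drive genes of DNA synthesis. The words TTTCCCGC, TTTGGCGC, TTTCGCGC and TTTGCCGC were searched on both strands from 250 bases before to 50 bases after each RefSeq start on GRCh38.p14. Such a word was found in 3.31% of all 35116 windows and in 5.92% of the 7872 windows with at least 30 CpG dinucleotides. Of the 10 members, 9 had a window at the start of their canonical transcript, and 5 of these windows held 1 E2F word each. Those of UHRF1, DNMT1 and EZH2, which were lower with enzalutamide, are shown with those of EZH1, which was higher, and of SUZ12, which did not pass the test. Each 30-base stretch is written 5′ to 3′ on the strand of its gene, with the E2F word in capitals.
UHRF1, chr19:4909476-4909505, plus strand: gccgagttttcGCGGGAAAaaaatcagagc
DNMT1, chr19:10194937-10194966, minus strand: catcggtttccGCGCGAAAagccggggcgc
EZH2, chr7:148884272-148884301, minus strand: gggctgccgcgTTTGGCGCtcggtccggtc
EZH1, chr17:42745137-42745166, minus strand: gcggggttttgGCGGCAAAtgacagtagtg
SUZ12, chr17:31936807-31936836, plus strand: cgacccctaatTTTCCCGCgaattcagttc
In UHRF1, DNMT1 and EZH2 the word began within 14 bases of the start, at positions -14, -2 and 2, and in EZH1 and SUZ12 it began further upstream, at -115 and -189. No E2F word was found in the canonical windows of DNMT3A, TET1, TET2 and TET3, nor in the only window of DNMT3B, which lies 17467 bases from its canonical start. A second window of UHRF1, 643 bases downstream, held a further word, which began at -160 from the start of that window's transcript. The shares over all windows count a word anywhere in the window, so none is given for words near the start. A relation between the position of a word and the change of its gene was not tested. The word TTTGAA, known as the CHR element of genes used late in the cell cycle, was found in 15.2% of all windows, in 3.94% of those with at least 30 CpG dinucleotides and, among the canonical windows of the members, in that of SUZ12. A match is a word in this window and was not tested as a binding site. The 250 bases before the start of UHRF1, the member with the largest change, are given with the same word in capitals and with its bases on the plus strand.
UHRF1, chr19:4909251-4909500: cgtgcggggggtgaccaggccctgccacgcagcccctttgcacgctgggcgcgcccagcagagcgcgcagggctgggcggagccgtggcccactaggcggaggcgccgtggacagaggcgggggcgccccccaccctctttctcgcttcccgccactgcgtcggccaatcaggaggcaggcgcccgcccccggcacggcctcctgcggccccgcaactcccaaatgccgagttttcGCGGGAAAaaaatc

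UHRF1, which recognises hemimethylated CpG sites and recruits DNMT1, lies on the plus strand of chromosome 19 from 4903080 to 4962154 of GRCh38, with 17 exons in its canonical transcript. Its level ranged from 20.7 to 25.7 CPM with a median of 22.9 CPM in the R1881 + DMSO libraries, and it was 10.6, 7.87, 9.72, 8.98 and 9.61 CPM in enzalutamide libraries 81 to 85. The highest enzalutamide library thus lay far below the lowest control library. The mean fell from 22.9 ± 1.63 CPM (n = 10, SD) to 9.36 ± 1.01 CPM (n = 5, SD), a log2 fold change of -1.25 (SE 0.065 from limma, adjusted p = 5.34e-13). Only 4.78% of all genes tested had a larger absolute log2 fold change. For TET1, EZH2, TET2, DNMT1 and EZH1 that share was 14.4%, 17.6%, 17.8%, 22% and 31%. The values of UHRF1 rested on 169 to 572 reads per library.

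DNMT1, the methyltransferase that copies methylation at replication, is encoded on chromosome 19 (minus strand, 10133342 to 10231286) and has 41 exons in its canonical transcript. The R1881 + DMSO libraries held 88.5 to 109 CPM with a median of 97.1 CPM, and enzalutamide libraries 81 to 85 held 67.0, 64.98, 74.0, 67.4 and 66.6 CPM. Library 83 was the highest of the latter and still lay below every control library. DNMT1 fell by 30.4%, from 97.7 ± 6.28 CPM (n = 10, SD) to 68.0 ± 3.46 CPM (n = 5, SD), with a log2 fold change of -0.52 (SE 0.046 from limma, adjusted p = 3.21e-09).

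The de novo methyltransferases did not share this fall. DNMT3A, on chromosome 2 (minus strand, 25227855 to 25342590), held 18.0 to 21.1 CPM with R1881 + DMSO (median 19.98) and 20.7, 22.2, 24.0, 21.2 and 21.7 CPM in enzalutamide libraries 81 to 85. The ranges overlapped, and the log2 fold change was 0.15 (95% confidence interval 0.04 to 0.25, adjusted p = 0.0158 from limma). DNMT3B, on the plus strand of chromosome 20 from 32762385 to 32809359, was scarcer, with 4.01 to 5.68 CPM (median 4.88) and 5.59, 6.24, 5.58, 5.61 and 5.30 CPM, from 73 to 143 reads per library. Its log2 fold change was 0.22 (95% confidence interval 0.05 to 0.38, adjusted p = 0.0216 from limma), and its ranges also overlapped. Both calls were lost with a single change. Without enzalutamide library 83 (replicate 2) the adjusted p of DNMT3A was 0.0642 from limma, and without library 82 (replicate 1) that of DNMT3B was 0.0704. Against R1881 libraries 71 to 75 alone they were 0.0523 and 0.0583.

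Since a ratio within a library does not depend on how libraries were scaled, DNMT1 was also set against DNMT3A library by library. The mean log2 ratio went from 2.30 to 1.63, a difference of -0.672 or a 1.59-fold fall (two-sided exact permutation test over 3003 regroupings of the 15 libraries, p = 0.000333, the smallest this design allows, and 0.0005 after Benjamini-Hochberg adjustment over 3 ratios). The ranges of the single genes already kept these ratios apart between the treatments. The p-value of this ratio therefore adds no support beyond the fall of DNMT1. For DNMT3B against DNMT3A the mean log2 ratio was -2.04 ± 0.184 (SD, n = 10) and -1.95 ± 0.114 (SD, n = 5), and the difference of 0.0874 was within the spread of the libraries (two-sided exact permutation test, p = 0.355, adjusted p = 0.355). Per length, in CPM per kb of the canonical transcript, DNMT1 made up 85.2% ± 0.462 of the summed level of the 3 DNMT genes with R1881 + DMSO (SD, n = 10) and 77.99% ± 0.860 with enzalutamide (SD, n = 5). The share of DNMT3A was 9.67% ± 0.457 and 14.1% ± 0.430, and that of DNMT3B was 5.12% ± 0.507 and 7.92% ± 0.642. The summed DNMT level fell from 21.7 ± 1.32 CPM per kb to 16.5 ± 0.751 CPM per kb. The shares of DNMT3A and DNMT3B thus rose by more than their own levels.

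TET2, on the plus strand of chromosome 4 from 105145875 to 105279816, ranged from 28.8 to 37.8 CPM with a median of 33.9 CPM in the R1881 + DMSO libraries. In enzalutamide libraries 81 to 85 it was 46.03, 54.3, 49.6, 54.4 and 54.6 CPM, so that each of them lay above every control library. Its mean rose from 34 ± 3.26 CPM in the 10 R1881 + DMSO libraries to 51.8 ± 3.83 CPM in the 5 enzalutamide libraries (± SD), a log2 fold change of 0.60 (SE 0.065 from limma, adjusted p = 7.36e-08). The size of the rise depended on the control series, with a log2 fold change of 0.49 against libraries 51 to 55 alone and 0.72 against libraries 71 to 75 alone.

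TET1 was the scarcest member, with 42 to 120 reads per library, and lies on the plus strand of chromosome 10 from 68560337 to 68694487. It held 2.13 to 3.54 CPM with a median of 2.79 CPM in the R1881 + DMSO libraries and 4.23, 5.59, 5.02, 4.39 and 5.39 CPM in enzalutamide libraries 81 to 85. These ranges did not overlap, and the mean rose from 2.87 ± 0.464 CPM in the 10 R1881 + DMSO libraries to 4.92 ± 0.598 CPM in the 5 enzalutamide libraries (± SD), a log2 fold change of 0.69 on the log2(CPM + 0.5) scale (SE 0.10 from limma, adjusted p = 6.36e-06). On the recovered reads, which need no pseudocount, the log2 fold change was 0.82 from edgeR (adjusted p = 2.23e-06).

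TET3, on the plus strand of chromosome 2 from 73984910 to 74108176, moved the other way and by little. Its level was 44.1 to 51.6 CPM (median 47.3) with R1881 + DMSO and 39.5, 44.5, 41.7, 45.4 and 45.8 CPM in enzalutamide libraries 81 to 85, with overlap. The log2 fold change was -0.13 (95% confidence interval -0.22 to -0.03, adjusted p = 0.0244 from limma), and edgeR on the recovered reads did not call it (log2 fold change -0.08, adjusted p = 0.12). The adjusted p from limma was 0.536 with library totals set to 1000000, 0.0607 without library 83 and 0.104 without library 81. By mean level per length TET3 was above TET2 with R1881 + DMSO, though not in libraries 52 and 55, at 50.6% ± 2.31 of the summed TET level (SD, n = 10) beside 45.6% ± 2.36 for TET2. With enzalutamide TET2 led, at 56.8% ± 0.388 (SD, n = 5) beside 37.8% ± 0.483 for TET3, and the shares of TET1 were 3.86% ± 0.661 and 5.39% ± 0.50. The summed TET level was 7.77 ± 0.446 CPM per kb with R1881 + DMSO and 9.51 ± 0.658 CPM per kb with enzalutamide. Each family had a different composition in each treatment, as the plot of shares shows.

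**Figure D2:**
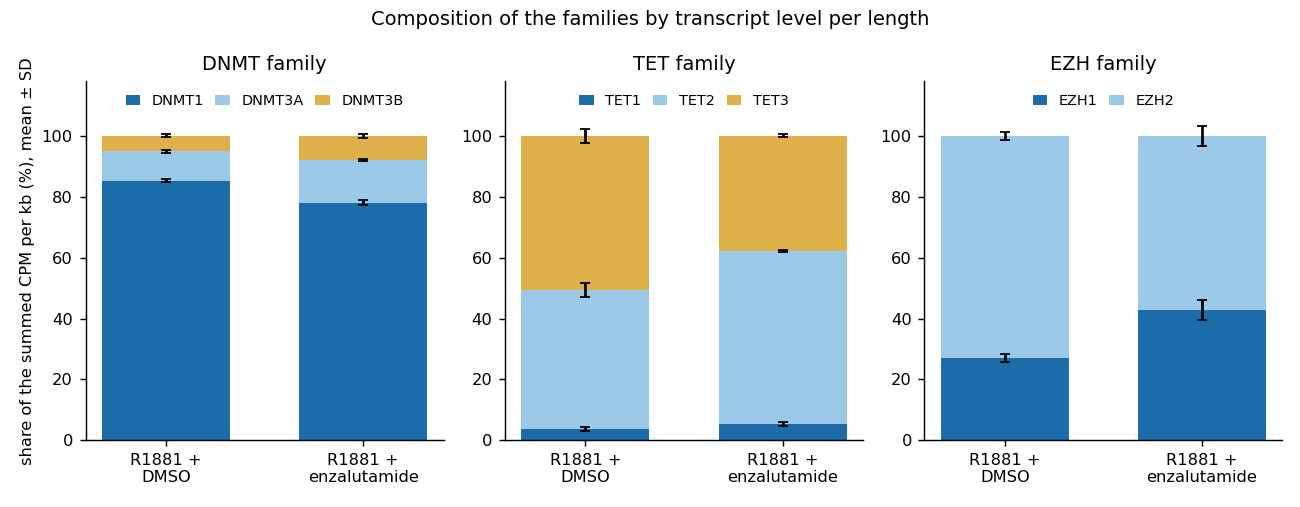
Share of each gene in the summed CPM per kb of its family (vertical axis, percent, mean ± SD over n = 10 R1881 + DMSO and n = 5 R1881 + enzalutamide libraries) for DNMT1, DNMT3A and DNMT3B, for TET1 to TET3, and for EZH1 and EZH2. The share of EZH2 is 73.1% with R1881 + DMSO and 57.2% with enzalutamide, and TET2 passes TET3.

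EZH2, the main catalytic subunit of PRC2 in dividing cells, is encoded on chromosome 7 (minus strand, 148807257 to 148884321) and has 20 exons in its canonical transcript. Its level ranged from 28.1 to 36.5 CPM with a median of 32.4 CPM in the R1881 + DMSO libraries. In enzalutamide libraries 81 to 85 it was 22.9, 21.8, 18.3, 22.1 and 22.6 CPM, below every control library, with library 83 the lowest. EZH2 fell by 34.9%, from 33.1 ± 2.73 CPM (n = 10, SD) to 21.6 ± 1.86 CPM (n = 5, SD), a log2 fold change of -0.61 (SE 0.063 from limma, adjusted p = 4.36e-08). It was -0.70 against libraries 51 to 55 alone and -0.52 against libraries 71 to 75 alone.

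EZH1, the alternative catalytic subunit, is encoded on chromosome 17 (minus strand, 42700275 to 42745049). It held 18.6 to 23.7 CPM with a median of 21.5 CPM in the R1881 + DMSO libraries and 27.4, 29.9, 29.6, 27.9 and 25.8 CPM in enzalutamide libraries 81 to 85, each above every control library. The mean rose from 21.3 ± 1.47 CPM in the 10 R1881 + DMSO libraries to 28.1 ± 1.68 CPM in the 5 enzalutamide libraries (± SD), a log2 fold change of 0.40 (SE 0.055 from limma, adjusted p = 2.40e-06). The EZH2 to EZH1 ratio of a library fell 2.03-fold (difference of mean log2 ratios -1.02, two-sided exact permutation test over 3003 regroupings, p = 0.000333, adjusted p = 0.0005 over 3 ratios). As EZH2 lay below and EZH1 above every control library, the ratios could not overlap. This p-value therefore adds no support beyond the differences of the single genes. By level per length EZH2 stayed above EZH1 with both treatments, at 73.1% ± 1.346 of their sum with R1881 + DMSO (SD, n = 10) and 57.2% ± 3.36 with enzalutamide (SD, n = 5). The sum itself was 17.1 ± 1.24 CPM per kb and 14.2 ± 0.550 CPM per kb.

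SUZ12, the subunit that holds PRC2 together, lies on the plus strand of chromosome 17 from 31937007 to 32001038. It held 81.1 to 107 CPM with a median of 96.3 CPM with R1881 + DMSO and 104, 98.3, 91.2, 98.8 and 106 CPM in enzalutamide libraries 81 to 85. The log2 fold change was 0.08 (95% confidence interval -0.04 to 0.19, adjusted p = 0.233 from limma), so a change of the size seen for EZH2 lay outside the interval. Its call depended on the setting, with a log2 fold change of 0.12 from edgeR (adjusted p = 0.04999), 0.17 with library totals set to 1000000 (adjusted p = 0.0079 from limma), 0.15 against libraries 71 to 75 alone (adjusted p = 0.040 from limma) and 0.003071 against libraries 51 to 55 alone. The table also has a row for its copy SUZ12P1, at 15.3 ± 0.994 CPM (SD, n = 10) and 16.1 ± 1.37 CPM (SD, n = 5), and counting could have split reads between the 2 copies.

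**Figure D3:**
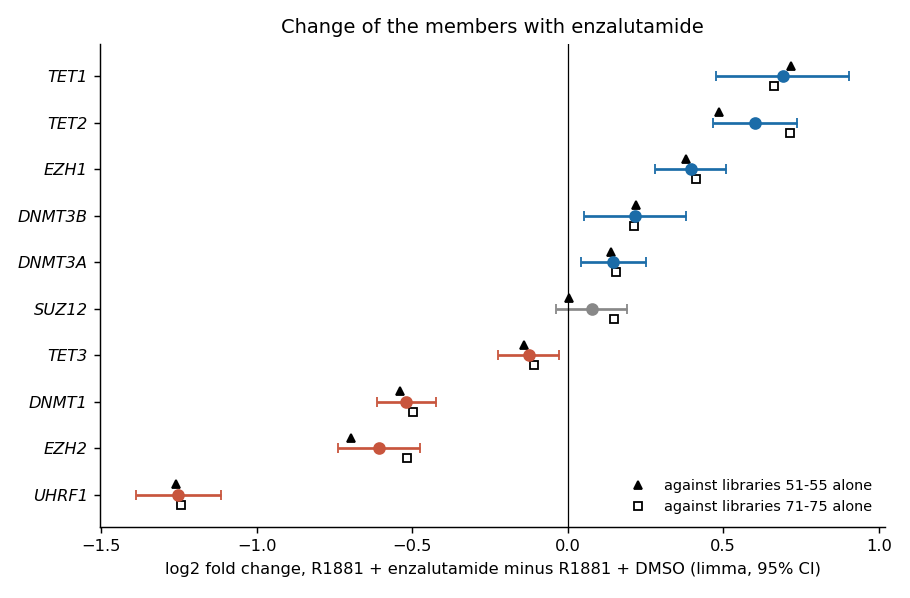
Log2 fold change of each member, R1881 + enzalutamide minus R1881 + DMSO (horizontal axis, coloured points with 95% confidence intervals from limma, red for lower, blue for higher, grey for not called), with the values against each R1881 series alone as triangles and squares. The members range from -1.25 for UHRF1 to 0.69 for TET1, and TET2, EZH2 and SUZ12 are those that shift most between the control series.

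Compared per length, the order of the members differed between treatments. With R1881 + DMSO it was SUZ12 at 21.0 ± 1.70 CPM per kb (SD, n = 10), DNMT1 at 18.5 ± 1.19, EZH2 at 12.5 ± 1.03, UHRF1 at 5.88 ± 0.417, EZH1 at 4.59 ± 0.317, TET3 at 3.92 ± 0.215, TET2 at 3.55 ± 0.340, DNMT3A at 2.10 ± 0.111, DNMT3B at 1.11 ± 0.121 and TET1 at 0.299 ± 0.0483. The ranges of neighbours overlapped for SUZ12 and DNMT1, for EZH1 and TET3, and for TET3 and TET2. With enzalutamide SUZ12 led at 22.2 ± 1.28 CPM per kb (SD, n = 5), followed by DNMT1 at 12.9 ± 0.656 and EZH2 at 8.12 ± 0.700. Next were EZH1 at 6.07 ± 0.363 and TET2 at 5.40 ± 0.399, whose ranges overlapped, and TET3 at 3.60 ± 0.223. UHRF1 had dropped from rank 4 to rank 7, at 2.40 ± 0.260 CPM per kb, where its range overlapped that of DNMT3A at 2.33 ± 0.138. DNMT3B at 1.31 ± 0.0796 and TET1 at 0.512 ± 0.0622 stayed last.

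**Figure D4:**
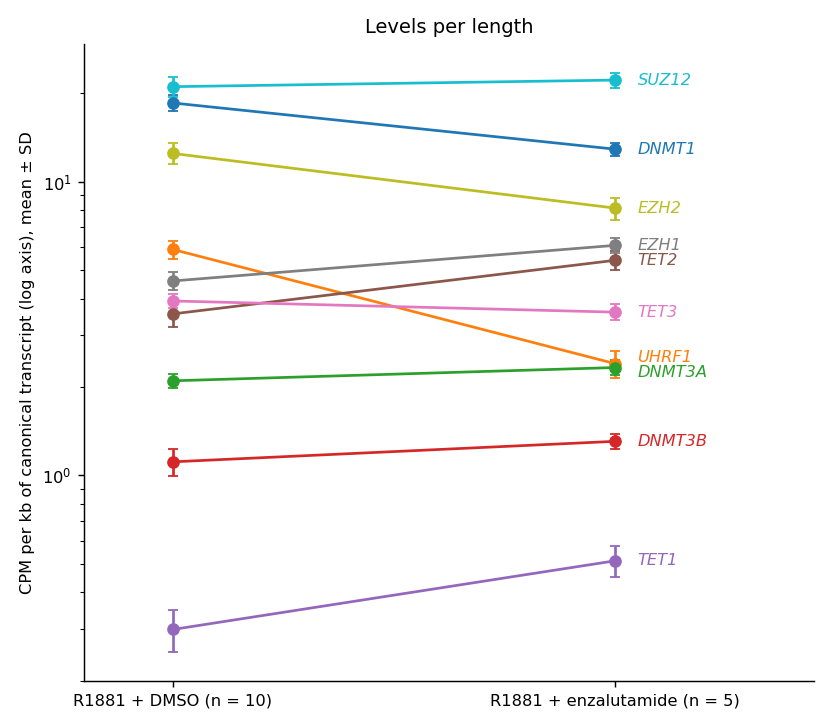
Mean level of each member in CPM per kb of its canonical transcript (vertical log axis, bars are the SD) with R1881 + DMSO (n = 10) and R1881 + enzalutamide (n = 5). UHRF1 goes from 5.88 to 2.40 and crosses EZH1, TET2 and TET3.

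The genes whose profile over the 15 libraries was closest to that of a member were found by the root mean square difference of log2(CPM + 0.5), each gene centred on its own mean, among 12155 genes with a mean of at least 5 CPM. For UHRF1 these were MYBL2 (difference 0.0835 on the log2 scale) and CYTH1 (0.0964), for DNMT1 PTK2B (0.0535) and WDR1 (0.0543), and for EZH2 UCHL5 (0.0494) and RRM1 (0.0522). For TET2 they were USP53 (0.0588) and IPO8 (0.0617), and for EZH1 ZADH2 (0.0685) and TMEM170A (0.0701). The profiles include the treatment difference, so the nearest genes are also genes of like fold change.

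Genes listed as partners of DNA methylation were lower throughout. All 7 measured genes of this list were called lower (UHRF2, HELLS, CDCA7, USP7, PCNA, LIG1 and PCLAF), beside 32.7% of all genes tested. Their median log2 fold change was -0.80, beside -0.01 for all genes tested. HELLS, a chromatin remodeller that DNA methylation depends on, fell from 25.4 ± 2.27 CPM (n = 10, SD) to 13.99 ± 1.31 CPM (n = 5, SD), and LIG1, the ligase of Okazaki fragments, from 16.5 ± 1.51 CPM to 9.15 ± 1.24 CPM. Genes of the cell cycle moved the same way. Of 43 genes of the S phase list of Seurat 41 were lower (limma, adjusted p under 0.05) and none was higher. Of 54 genes of its G2/M phase list 53 were lower and 1 was higher. Among all genes tested 32.7% were lower and 29.8% were higher. The medians of these phase lists were -0.81 and -0.87, beside -1.25, -0.52 and -0.61 for UHRF1, DNMT1 and EZH2. The summed level of the S phase list was 2493 to 2986 CPM in the R1881 + DMSO libraries and 1353 to 1512 CPM with enzalutamide. UHRF1 is itself in the S phase list, as are CDCA7, HELLS and PCNA. The part of the cell cycle in the change of the members was not tested, and in bulk RNA fewer cells in a phase and less RNA per cell cannot be told apart.

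**Figure D5:**
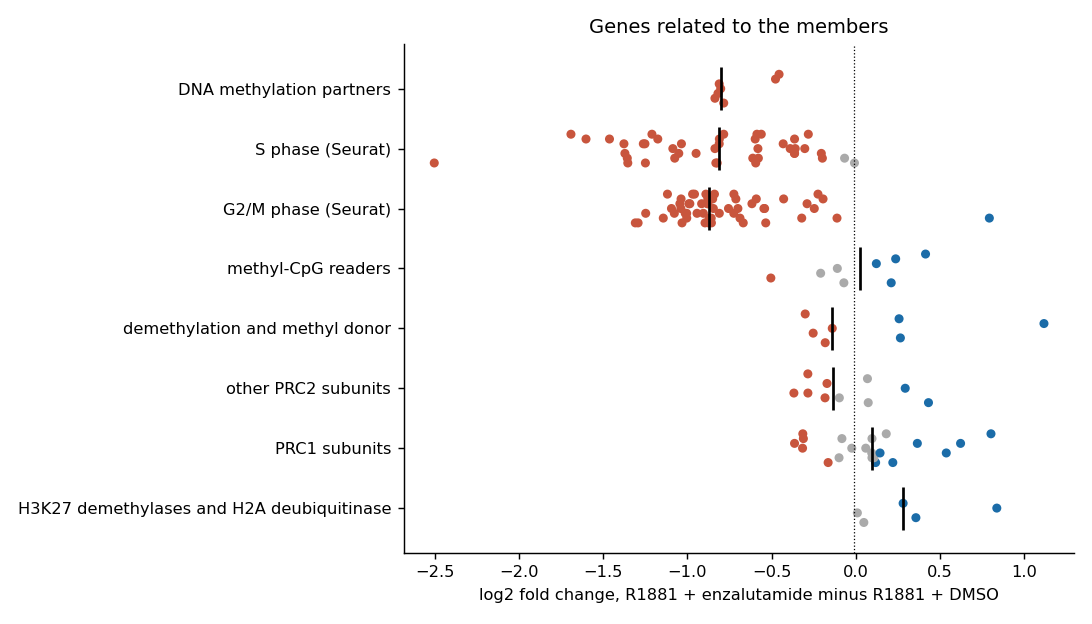
Log2 fold change, R1881 + enzalutamide minus R1881 + DMSO (horizontal axis), of the tested genes of 8 lists, 1 point per gene, red for lower, blue for higher and grey for not called by limma, with list medians as black bars and the median of all genes as a dotted line. The methylation partners and the S and G2/M phase lists lie left of 0, with medians of -0.80, -0.81 and -0.87, and the Polycomb lists spread to both sides.

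Of 10 other PRC2 subunits measured, 5 were lower, 2 were higher and 3 did not pass the test, beside 32.7% lower and 29.8% higher among all genes tested, and their median log2 fold change was -0.13. RBBP7, a histone-binding subunit, fell from 198 ± 11.2 CPM (n = 10, SD) to 153 ± 6.12 CPM (n = 5, SD), and PHF1, an accessory subunit, from 32.8 ± 3.12 CPM to 26.8 ± 2.18 CPM. AEBP2 and JARID2, the accessory subunits of the PRC2.2 form, rose from 35.6 ± 2.36 CPM to 48.1 ± 2.21 CPM and from 26.1 ± 1.57 CPM to 32.0 ± 1.12 CPM. EED, the core subunit that binds methylated H3, had a log2 fold change of -0.10 and did not pass (adjusted p = 0.144 from limma). In PRC1, the complex that ubiquitinates histone H2A, 5 of 21 subunits were lower and 7 were higher, with a median of 0.10, and the share called was near the 62.5% of all genes tested. The E3 ligase RNF2 fell from 29.4 ± 2.57 CPM to 23.5 ± 1.59 CPM and its cofactor RYBP from 102 ± 7.56 CPM to 79.0 ± 4.92 CPM, whereas PHC1 rose from 25.2 ± 1.70 CPM to 44.2 ± 2.16 CPM and the chromobox gene CBX6 from 107 ± 9.40 CPM to 164 ± 10.0 CPM.

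Among enzymes that act against Polycomb marks and their partners (KDM6A, KDM6B, BAP1, ASXL1 and ASXL2), 3 of 5 measured were higher and none was lower, beside 29.8% higher and 32.7% lower among all genes tested. KDM6A, a demethylase of H3 lysine 27, rose from 274 ± 11.6 CPM in the 10 R1881 + DMSO libraries to 489 ± 17.3 CPM in the 5 enzalutamide libraries (± SD), a log2 fold change of 0.84 (SE 0.034 from limma, adjusted p = 7.84e-15), with no overlap between libraries. The related demethylase KDM6B had 45.4 ± 7.14 CPM and 54.9 ± 5.73 CPM with overlap (adjusted p = 0.0125 from limma). ASXL2, a partner of the H2A deubiquitinase BAP1, rose from 48.3 ± 4.53 CPM to 61.8 ± 2.58 CPM. BAP1 itself did not pass, at 62.1 ± 5.23 CPM and 62.5 ± 5.26 CPM.

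Of 8 readers of methylated CpG 1 was lower and 4 were higher, the same share called as the 62.5% of all genes tested, with a median log2 fold change of 0.03. MBD2 fell from 94.8 ± 9.09 CPM (n = 10, SD) to 66.5 ± 3.28 CPM (n = 5, SD), and ZBTB38 and ZBTB33 rose from 33.0 ± 1.54 CPM to 44.1 ± 1.88 CPM and from 60.8 ± 3.89 CPM to 71.7 ± 3.64 CPM. Of 7 measured genes on a list for demethylation and the methyl donor, which also holds AHCY and the related gene AHCYL1, 4 were lower and 3 were higher. Among all genes tested these shares were 32.7% and 29.8%, and the median of the list was -0.14. TDG, the glycosylase that excises oxidised methylcytosine, fell from 92.8 ± 6.25 CPM to 75.1 ± 1.82 CPM, and MAT2A, which makes S-adenosylmethionine, from 302 ± 12.1 CPM to 253 ± 11.2 CPM. NEIL1, a further DNA glycosylase, rose from 3.95 ± 0.757 CPM to 9.11 ± 1.352 CPM, and AHCYL1 from 170 ± 7.54 CPM to 204 ± 5.63 CPM.

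Genes known as silenced by these enzymes were few in the table. Of 6 genes often methylated in prostate cancer, GSTP1, CCND2 and PTGS2 had no row. RARB, a retinoic acid receptor, fell from 11.5 ± 1.502 CPM (n = 10, SD) to 3.84 ± 0.537 CPM (n = 5, SD), RASSF1 fell from 17.6 ± 2.25 CPM to 12.7 ± 0.695 CPM, and APC rose from 51.8 ± 4.56 CPM to 59.5 ± 4.58 CPM. Of 9 germline genes held silent by DNA methylation 6 had no row, and MAGEA1, MAGEA3 and MAGEA4 were all lower, beside 32.7% of all genes tested. MAGEA3, which was expressed in these cells, went from 234 ± 6.89 CPM to 198 ± 3.78 CPM, and MAGEA1 from 5.46 ± 0.742 CPM to 3.18 ± 0.188 CPM. Since the MAGEA genes resemble each other, counting could have split their reads. Among genes described as repressed by EZH2 in prostate cancer, SLIT2 and MSMB had no row. CCN3, listed under its older name NOV, had 0.281 ± 0.104 CPM with R1881 + DMSO and 3.80 ± 0.614 CPM with enzalutamide. Its R1881 + DMSO level was under the filter on low values, which it passed through the enzalutamide libraries, and its difference is given as a description with no test. DAB2IP rose from 11.2 ± 1.59 CPM to 14.9 ± 2.30 CPM with overlap. DNA methylation and histone marks were not measured in these libraries.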

How the data were processed

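LNCaP libraries (10 with R1881 + DMSO, 5 with R1881 + enzalutamide) were grouped by their titles. Per the labels and methods, the authors used bcl2fastq 2.17, aligned reads to GRCh38 (STAR, single-end) and assigned them to genes (featureCounts). The deposited values are a normalized signal, named CPM in the methods. Versions of the mapper and counter, annotation, use of strand, gene filter and scaling: not given in the sources used here. Deposited columns summed to between 1053406 and 1078567 with R1881 + DMSO and to between 985580 and 1008992 with enzalutamide. These sums did not overlap, so a difference in scaling and the treatment cannot be told apart. All values (100%) were whole multiples of 1 read (tolerance 0.01 reads), so that read counts could be recovered. The methods call the samples biological replicates, but give the numbers per treatment the other way round than the labels, and the labels were followed.

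Differences were tested with limma 3.58.1 (R 4.3.3, mean-variance trend) on log2(CPM + 0.5) for genes with a mean of at least 0.5 CPM, with Benjamini-Hochberg adjustment over all 17046 genes and a threshold of 0.05. edgeR 4.0.16 and DESeq2 1.42.0 were run on the recovered reads. Fold changes on this scale understate those of low genes. CPM per kb used the canonical transcript of GENCODE v44, an annotation that may differ from that behind the counts. Ratios were compared by exact permutation. Lists were written by hand, apart from the phase lists of Seurat 5.3.0, and genes without a row under a current or older symbol were not analysed here. The rule for names took the members, the 2 called genes of each list with the lowest and the 2 with the highest change, and the 2 nearest profiles. Some names it gives are left out, while others (EED, BAP1, KDM6B, ASXL1, MAGEA4, SUZ12P1) were added after their values were seen. Some genes of the lists are not reported here. Members and lists were chosen with earlier results of these data known. The fit was tested on simulated data. Alternatives covered the pseudocount, filter, scaling, test, blocks, control series, fold threshold and each library left out.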

Additional observations from a re-analysis of the deposited data

Results flagged for a closer look

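Over 28 groups of 5 or 10 libraries (the members, the 3 ratios and the read totals by treatment), 3 held a library far from the others, where chance gives about 1.4. Within R1881 + enzalutamide, replicate 2 (library 83) was the highest for DNMT1, at 74.0 CPM beside 67.4 CPM in the next library, and the lowest for EZH2, at 18.3 CPM beside 21.8 CPM. In this library the deviations of genes from the group mean followed their GC content (Spearman's rho 0.72 over 13790 genes that are no independent replicates), as they did in libraries that were not singled out (0.74 in library 73, 0.58 in 74, -0.57 in 53 and -0.635 in 52), and the transcripts of DNMT1 and EZH2 have a GC content of 54.9% and 44.9%. After removal of the GC trend within each library, an alternative chosen after seeing the data, neither gap was far enough to be singled out. The gap to the next library was then 0.523 of the group's range for DNMT1 and 0.450 for EZH2, from 0.726 and 0.762. Library 83 was still the highest for DNMT1, at 71.6 CPM beside 68.9 CPM in library 85. It was still the lowest for EZH2, at 19.2 CPM beside 20.8 CPM in library 82. The part of GC content in these values was not tested. With the GC trend removed the log2 fold changes were -0.49 for DNMT1 and -0.62 for EZH2, with adjusted p-values of 2.08e-12 and 5.66e-12 from limma.

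The read total of R1881 + enzalutamide replicate 5 (library 84) was 25416052, beside 22329140 in the next library of its group.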

How the results depend on the processing

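UHRF1, DNMT1, EZH2, TET1, TET2 and EZH1 kept their direction and their side of the threshold under all 28 alternatives tried for each, with log2 fold changes of -1.30 to -1.16, -0.55 to -0.43, -0.70 to -0.52, 0.62 to 0.82, 0.49 to 0.72 and 0.37 to 0.49. Calls were lost under 2 alternatives for DNMT3A, 3 for DNMT3B and 6 for TET3, and SUZ12 was called under 3. With at least 1.5-fold required, 2 members were lower and 2 were higher. With each library left out in turn 3 to 4 members were lower and 4 to 5 were higher. Library totals set to 1000000 gave 3 lower and 6 higher members, and 39.2% of all calls were then downward, beside 52.3% as reported. Libraries with the same replicate number in their titles correlated in their deviations at -0.108 to 0.127. These correlations gave no sign of a pairing but could not exclude one. A replicate block on the title numbers gave 3 lower and 4 higher members (DNMT3B adjusted p = 0.146 and TET3 adjusted p = 0.0525 from limma). For the last digit of the library number, which the labels do not explain, the correlations were mixed (-0.383 to 0.816, over 0.1 in 5 of 10 pairs), and a replicate block on it gave 4 and 5. The differences of the EZH2 to EZH1 and DNMT1 to DNMT3A log2 ratios stayed between -1.10 and -0.94 and between -0.69 and -0.65. Cause was not tested for any of these. For TET1 and DNMT3B few reads per library limit the precision.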

Other observations

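Within R1881 + DMSO, libraries 51 to 55 and 71 to 75 differed for some members, and the sources used here do not give the meaning of these numbers. TET2 held 36.7 ± 1.36 CPM in libraries 51 to 55 (SD, n = 5) and 31.3 ± 1.94 CPM in libraries 71 to 75 (SD, n = 5), with ranges of 34.4 to 37.8 CPM and 28.8 to 33.4 CPM. SUZ12 held 99.3 ± 4.26 CPM and 89.9 ± 7.55 CPM, with ranges of 96.6 to 107 CPM and 81.1 to 95.96 CPM. Its lower mean in libraries 71 to 75 rested mainly on libraries 73 and 74, at 81.1 and 82.1 CPM, where the next lowest library held 94.8 CPM. EZH2 held 35.2 ± 1.72 CPM and 31.0 ± 1.74 CPM. For UHRF1 the means of the series were 23.0 ± 1.40 CPM and 22.8 ± 1.99 CPM. The difference between series was not tested.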
